A study of Mus musculus with 7 samples.

Results

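The G1 regulators described here are 10 genes that set whether a cell passes from G1 into S phase. They are the D cyclins Ccnd1, Ccnd2 and Ccnd3, the kinases Cdk4 and Cdk6, the CDK inhibitors Cdkn1b, Cdkn2a, Cdkn2c and Cdkn2d, and the retinoblastoma gene Rb1. They were taken by gene symbol from the raw count table, and all 10 had a row among its 24421 symbols. The table holds RNA-seq of mouse LSK (Lin-Sca1+Kit+) cells, a marrow population that includes stem cells and multipotent progenitors. The cells came from BoyJ recipients of bone marrow that carried RosaCreERT2, a tamoxifen-activated recombinase expressed from a ubiquitous promoter, and either a heterozygous floxed Ddx41 allele (Ddx41+/-) or wild-type Ddx41 only (Ddx41+/+). Ddx41 encodes a DEAD-box RNA helicase. All recipients, controls included, received daily injections of 1 mg tamoxifen in 50 µl corn oil, in 2 rounds of 5 consecutive days. LSK cells were sorted at 8 weeks after the transplant. There were 4 Ddx41+/+ libraries (replicates 1 to 4) and 3 Ddx41+/- libraries (replicates 6 to 8). Per the name of the deposited table, a Ddx41+/- library numbered 5 had been removed from it. That library was not analysed here, and the reason for its removal was not given. The recombinase can act in any donor-derived cell, and host cells that survive conditioning may remain in the sorted fraction. The age and sex of the animals were not given in the labels.

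D cyclins bind Cdk4 or Cdk6 and start the phosphorylation of the retinoblastoma protein in response to cytokines. Phosphorylated retinoblastoma protein releases E2F factors, which switch on genes for DNA replication. INK4 inhibitors (Cdkn2a, Cdkn2c, Cdkn2d) block Cdk4 and Cdk6, and the KIP inhibitor Cdkn1b blocks cyclin E with Cdk2. Stem cells in the marrow are mostly quiescent, and D cyclins, Cdk6 and these inhibitors are known to control when they enter the cycle. D cyclins and Cdkn1b are also set by protein turnover, and the kinases by assembly and phosphorylation, none of which RNA levels measure.

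None of the G1 regulators passed the test for a difference between genotypes. Among the 9 members that passed the filter on low counts, 0 reached a Benjamini-Hochberg (BH) adjusted p under 0.05 in the quasi-likelihood test of edgeR, against 0.217% of the 13340 genes tested (0.12% higher and 0.0975% lower in Ddx41+/-). At an unadjusted p under 0.05, 0 members were called by edgeR and 0 by DESeq2, and 1 (Cdk6) by limma-voom, against 10.6% of all genes by edgeR. The median log2 fold change (Ddx41+/- over Ddx41+/+) of the 9 members was -0.028, beside -0.0048 over all genes tested. The fold changes lay between -0.10 (Cdkn2d) and 0.49 (Cdk6), with 3 positive and 6 negative. Only Ccnd3 had no overlap between the genotypes in CPM (counts scaled to library size), against 10.1% of all genes. The tenth member, Cdkn2a, was listed at 0 in 6 of the 7 libraries. The replicates are separate samples by their labels, and p-values measure the spread between these samples. In bulk samples, fewer cells of a type and less RNA per cell cannot be told apart.

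**Figure D1:**
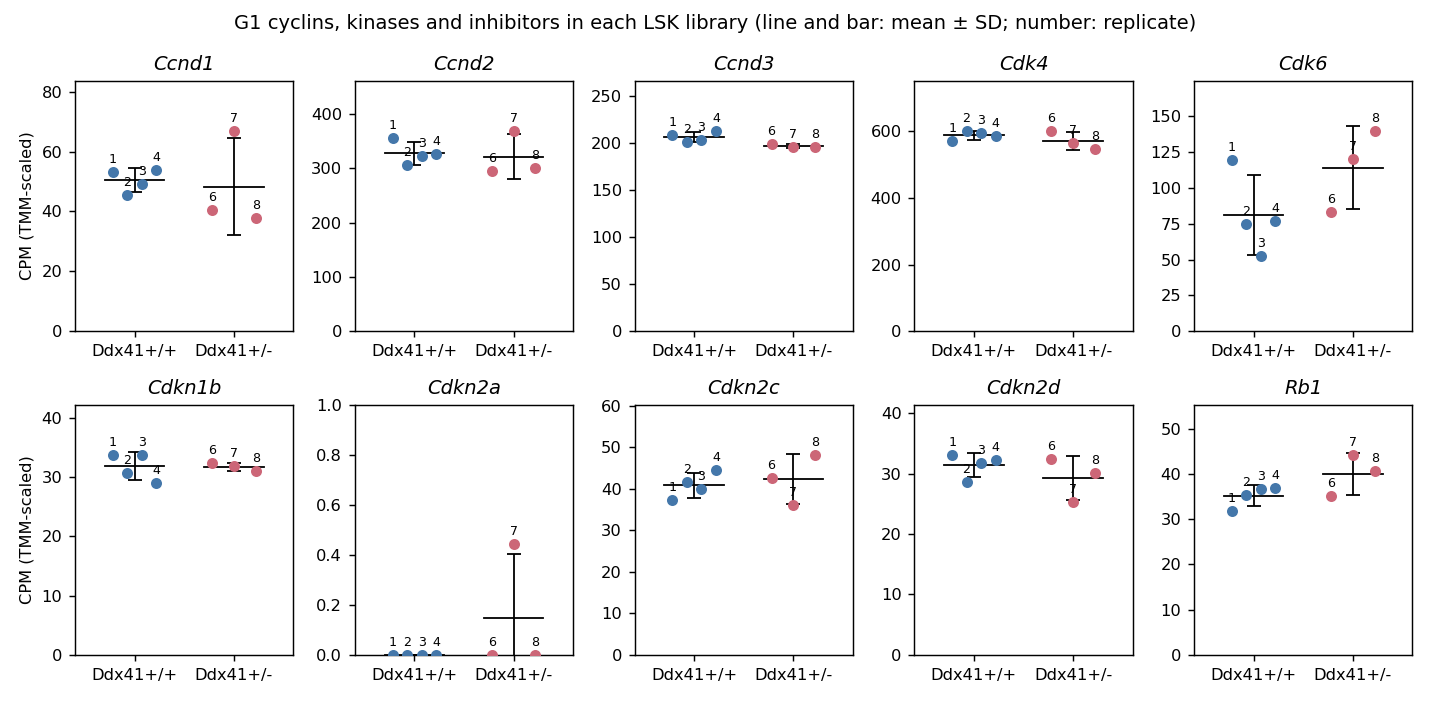
Level of each member in CPM scaled by the trimmed mean of M values (TMM), one panel per gene with its own axis from 0. Points are libraries numbered by replicate, and the line and bar give the mean ± SD of 4 Ddx41+/+ and 3 Ddx41+/- libraries. Ccnd3 alone shows no overlap, Ccnd1 and Ccnd2 are highest in Ddx41+/- replicate 7, and Cdk6 is spread widely in both genotypes.

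Total counts per library ranged from 32234499 to 43751290. Single members that passed the filter held between 853 counts (Cdkn2d in Ddx41+/- replicate 7) and 24282 counts (Cdk4 in Ddx41+/- replicate 8). Ddx41 itself fell in Ddx41+/-, to 67.3 ± 2.63 CPM (SD, n = 3) against 97.9 ± 6.43 CPM (SD, n = 4), a log2 fold change of -0.54 with a BH-adjusted p of 0.0052 in edgeR, and its genotypes did not overlap. RNA of all 10 markers of LSK cells examined was found in the sorted fraction. Kit had a mean of 466 CPM in Ddx41+/+ and 468 CPM in Ddx41+/-. Ly6a, the gene of the Sca-1 antigen, had only 20.9 and 20.8 CPM, respectively. The purity of the sort was not tested. Of the 10 markers, 9 had a negative fold change in Ddx41+/-. An unadjusted p under 0.05 (edgeR) was found for 8 of them, and a BH-adjusted p under 0.05 for 1 (Mycn). Kit and Ly6a, the genes of the sort antigens, were not among the 8, at log2 fold changes of 0.0041 and -0.011. The summed level of the 10 markers was 1660 to 1834 CPM in Ddx41+/+ and 1516 to 1661 CPM in Ddx41+/-. All 9 mature neutrophil markers had a positive fold change, 9 with an unadjusted p under 0.05 and 1 (Mmp9) with a BH-adjusted p under 0.05, and their sum was 694 to 1187 CPM in Ddx41+/+ and 1270.0 to 2168 CPM in Ddx41+/-. All 5 granulocyte-monocyte progenitor genes had a positive fold change, 3 with an unadjusted p and 0 with a BH-adjusted p under 0.05 (edgeR). Their sums were 19090.0 to 22990.0 CPM in Ddx41+/+ and 23770.0 to 25210.0 CPM in Ddx41+/-. All 9 B lineage markers had a positive fold change, 4 with an unadjusted p under 0.05 and 1 (Blnk) with a BH-adjusted p under 0.05 (edgeR), and their sum was 44.04 to 60.8 CPM in Ddx41+/+ and 60.5 to 83.6 CPM in Ddx41+/-. Lists of T and NK cell, late erythroid, macrophage, and stroma and endothelium markers had 0 genes with a BH-adjusted p under 0.05, and 0, 1, 0 and 1 genes with an unadjusted p under 0.05. Fold changes were positive for 2 of 4, 4 of 5, 7 of 7 and 5 of 8 genes tested in these lists, respectively. Over all genes tested, 5.7% were higher and 4.93% lower in Ddx41+/- at an unadjusted p under 0.05 (edgeR). The part of these shifts in the values of the G1 regulators was not tested.

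Levels of different genes were compared per kb of exon (CPM per kb of the exon union of the gene). Cdk4 was by far the most abundant member in Ddx41+/+ LSK cells, at 180.9 ± 4.08 CPM per kb (SD, n = 4). Ccnd2 followed at 34.8 ± 2.20 CPM per kb and Ccnd3 at 23.5 ± 0.592 CPM per kb. The INK4 inhibitors came next, with Cdkn2d at 19.9 ± 1.26 CPM per kb and Cdkn2c at 15.2 ± 1.12 CPM per kb. Ccnd1, the D cyclin with the lowest level, stood at 10.7 ± 0.827 CPM per kb. Cdkn1b had 6.98 ± 0.515, Rb1 5.84 ± 0.386 and Cdk6 5.79 ± 1.99 CPM per kb. In this order the Ddx41+/+ values of neighbouring members did not overlap, apart from Rb1 and Cdk6. The order depends on the length used. With the longest coding transcript in place of the exon union, Ccnd3 (97.7 ± 2.46 CPM per kb) stood above Ccnd2 (51.8 ± 3.27 CPM per kb), and Cdkn1b (6.98 CPM per kb) fell behind Rb1 (7.55 CPM per kb) and Cdk6 (7.03 CPM per kb).

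The D cyclins are the cytokine-responsive partners of Cdk4 and Cdk6, and any of the 3 can activate these kinases. Ccnd1 (chromosome 7, 144929931 to 144939925, minus strand; GRCm38) had 53.3, 45.6, 49.3 and 54.0 CPM in the Ddx41+/+ libraries, by replicate number. In Ddx41+/- replicates 6, 7 and 8 it had 40.4, 66.9 and 37.7 CPM. Replicate 7 thus lay above all Ddx41+/+ libraries and the other Ddx41+/- libraries lay below all of them. In edgeR the log2 fold change was -0.067 ± 0.188 (SE) with a BH-adjusted p of 0.934, and its 95% interval covered folds from 0.708 to 1.29. The SD of log2 CPM in Ddx41+/- (0.450) exceeded that of 94.6% of tested genes with a mean of at least 1 CPM. Without replicate 7 the fold change was -0.37, with an unadjusted p of 0.00129 and a BH-adjusted p of 0.233 in edgeR. Replicate 7 also had the highest sum of B lineage markers (83.6 CPM, against 44.04 to 77.4 CPM in the other libraries) and of macrophage markers (232 CPM, against 171 to 200.3 CPM), and their part in its Ccnd1 level was not tested. Exons of Oraov1 on the opposite strand cover 23.4% of the Ccnd1 exons. Whether strand was used in counting is not given in the sources used here, so reads of both genes cannot be told apart there.

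Ccnd2 (chromosome 6, 127125162 to 127152193, minus strand) is the D cyclin best known for cytokine response in blood cells. It had 356, 306, 323 and 326 CPM in Ddx41+/+ and 294, 369 and 301 CPM in Ddx41+/-. As for Ccnd1, Ddx41+/- replicate 7 was above all Ddx41+/+ libraries and replicates 6 and 8 were below them. The log2 fold change was -0.028 ± 0.0785 (SE; edgeR BH-adjusted p = 0.934; fold 0.874 to 1.10).

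Ccnd3 (chromosome 17, 47505051 to 47599691, plus strand) is the D cyclin known for its role in lymphoid and erythroid precursors. It had 208, 201, 204 and 213 CPM in Ddx41+/+ and 199.6, 196 and 196 CPM in Ddx41+/-. All Ddx41+/- libraries were below all Ddx41+/+ libraries, a pattern found in 5.21% of all genes tested. The separation was narrow, at 206 ± 5.20 CPM (SD, n = 4) against 197 ± 2.07 CPM (SD, n = 3). The log2 fold change of -0.066 ± 0.0562 (SE) did not pass the test (edgeR unadjusted p = 0.255, BH-adjusted p = 0.723), and the interval of the fold was 0.879 to 1.04. Ccnd3 varied little. Its SD of log2 CPM in Ddx41+/+ (0.0362) was above that of only 4.86% of tested genes with a mean of at least 1 CPM. Exons of Bysl on the opposite strand cover 4.11% of its exons, and a processed pseudogene, Ccnd3-ps, lies on chromosome 4. Reads that either shares with Ccnd3 could not be assigned with certainty.

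Shares of the D cyclins were compared next, with differences between the means that were smaller than the SD among Ddx41+/- libraries. Per kb of exon union, Ccnd2 held 50.4% ± 1.12 of the D cyclin sum for Ddx41+/+ (SD, n = 4) and 51.0% ± 0.939 for Ddx41+/- (SD, n = 3). Ccnd3 held 34.1% ± 1.11 and 33.9% ± 3.79, and Ccnd1 held 15.5% ± 0.578 and 15.1% ± 3.18, respectively. Within Ddx41+/-, the Ccnd1 share was 18.7% in replicate 7 and 13.7% and 12.8% in replicates 6 and 8. By the longest coding transcript Ccnd3 instead held the larger share, at 60.0% ± 1.20 in Ddx41+/+, and Ccnd2 31.7% ± 1.07.

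Cdk4 and Cdk6 are the catalytic partners of the D cyclins. Their RefSeq promoters (GRCm38.p6; the 250 bases before the transcript start, 5′ to 3′ on the strand of the gene) are shown because these kinases had the highest and the lowest mean per kb of exon union in Ddx41+/+ among the 9 members tested, although the values of Cdk6 overlapped those of Rb1, and in Ddx41+/- Rb1 was the lowest (6.65 CPM per kb, against 8.16 CPM per kb for Cdk6). Capitals mark an E-box, CACGTG, or the E2F-type motif TTTNNCGC, both searched on both strands.
Cdk4, chr10:127063285-127063534, plus strand: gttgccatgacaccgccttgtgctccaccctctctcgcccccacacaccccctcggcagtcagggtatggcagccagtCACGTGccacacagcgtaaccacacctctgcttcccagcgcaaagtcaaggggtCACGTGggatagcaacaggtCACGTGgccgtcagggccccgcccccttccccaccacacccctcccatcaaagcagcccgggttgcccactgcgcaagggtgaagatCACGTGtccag
Cdk6, chr5:3343643-3343892, plus strand: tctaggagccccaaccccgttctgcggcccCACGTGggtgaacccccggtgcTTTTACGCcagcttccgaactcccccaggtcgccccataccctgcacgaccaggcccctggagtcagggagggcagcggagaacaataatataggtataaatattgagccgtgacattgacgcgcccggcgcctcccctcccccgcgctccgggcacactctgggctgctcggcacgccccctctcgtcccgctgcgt
The Cdk4 promoter held 4 E-boxes, which begin at positions -172, -118, -98 and -11 from the transcript start. An E-box was found in 6.02% of the 32851 promoters in the same table, and 4 or more in 0.0213% of them. The Cdk6 promoter held 1 E-box at -220 and 1 E2F-type motif at -198, the latter found in 4.28% of all promoters. This window lies inside the Cdk6 gene span of GENCODE M21, which begins upstream at 3341485. The Cdk6 motif positions therefore refer to the RefSeq start only. No motif occurrences overlapped each other in these windows. A match of letters is a description of the sequence, and binding was not measured.

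Cdk4 (chromosome 10, 127063534 to 127067920, plus strand) had 570.0, 601, 594 and 586 CPM in Ddx41+/+ and 599.8, 563.5 and 547 CPM in Ddx41+/-. The genotypes overlapped, with Ddx41+/- replicate 6 close to the highest Ddx41+/+ library and replicates 7 and 8 below the lowest. The log2 fold change was -0.043 ± 0.0568 (SE; edgeR BH-adjusted p = 0.839), and the 95% interval held the fold between 0.893 and 1.06. Cdk4 was among the steadiest genes. Its SD of log2 CPM in Ddx41+/+ (0.0327) was above that of 3.58% of tested genes with a mean of at least 1 CPM. Exons of Tspan31 on the opposite strand cover 19.7% of its exons.

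Cdk6 (chromosome 5, 3341485 to 3531008, plus strand) is a kinase of blood progenitors whose level is known to influence how readily stem cells leave quiescence. It had 119, 75.005, 52.6 and 77.1 CPM in Ddx41+/+ and 83.0, 120.0 and 139.6 CPM in Ddx41+/-. The highest libraries were Ddx41+/- replicates 8 and 7, but Ddx41+/+ replicate 1 was level with the latter. At 81.0 ± 27.9 CPM for Ddx41+/+ (SD, n = 4) and 114 ± 28.8 CPM for Ddx41+/- (SD, n = 3), the log2 fold change was 0.49 ± 0.326 (SE; edgeR unadjusted p = 0.187, BH-adjusted p = 0.667). The 95% interval of the fold was 0.798 to 2.48, the widest of the members. In 4 of 16 alternative fits (other scalings, filters or tools, or a library left out) its unadjusted p was under 0.05, between 0.0103 and 0.0356, with BH-adjusted p-values from 0.259 to 0.420 (edgeR and limma-voom). Without Ddx41+/+ replicate 1 it was 0.0318 unadjusted and 0.378 adjusted in edgeR, at a log2 fold change of 0.74. Of the sum of Cdk4 and Cdk6 per kb of exon, Cdk6 made up 3.11% ± 1.10 for Ddx41+/+ (SD, n = 4) and 4.47% ± 1.26 for Ddx41+/- (SD, n = 3).

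**Figure D2:**
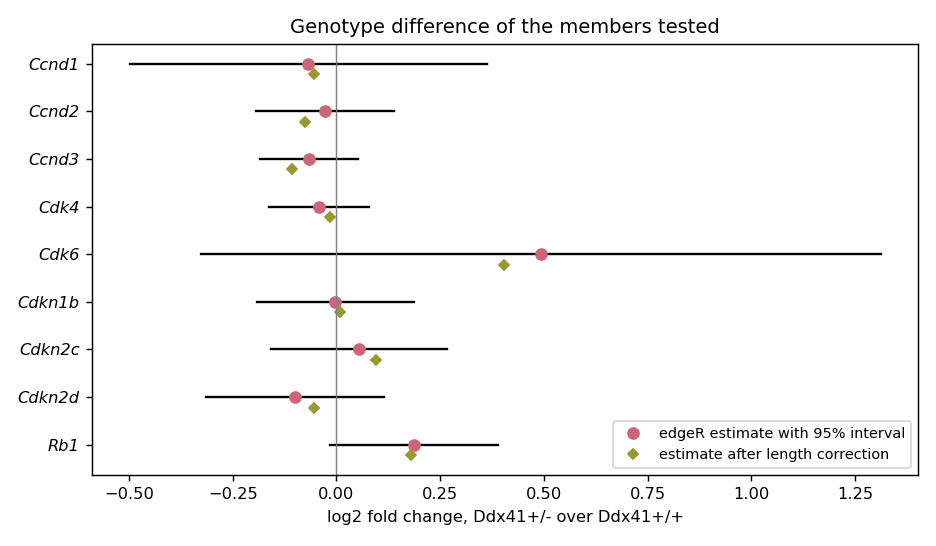
Log2 fold change (Ddx41+/- over Ddx41+/+) of the 9 members tested, with circles and lines for the edgeR estimate and its 95% interval and diamonds for the estimate after removal of a trend with exon length. All 9 intervals include 0, and Cdk6 and Ccnd1 have the widest.

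The spread of Cdk6 was already large among Ddx41+/+ libraries. Its SD of log2 CPM there was 0.484, above that of 95.5% of tested genes with a mean of at least 1 CPM. The highest Ddx41+/+ library was 2.27 times the lowest. The libraries also differed in how long transcripts were represented. Cdk6 has 13.99 kb of annotated exon, of which 0.978 kb is coding. For the 704 genes tested with over 12 kb of exon, the median deviation of log2 CPM from the gene's mean was 0.095, -0.062, -0.132 and -0.057 for the Ddx41+/+ libraries and -0.038, 0.067 and 0.165 for the Ddx41+/- libraries, by replicate number. The deviations of Cdk6 were 0.396, -0.274, -0.786 and -0.234 in the former and -0.128, 0.403 and 0.622 in the latter. Both measures ordered the libraries alike, apart from an exchange of Ddx41+/+ replicate 1 and Ddx41+/- replicate 7. The points share these 7 libraries and their depth. When the trend with exon length was removed in each library, the log2 fold change of Cdk6 was 0.40 (edgeR unadjusted p = 0.179, BH-adjusted p = 0.682) and the SD in Ddx41+/+ was 0.405. This correction was chosen after the data were seen, and the part of transcript length in the Cdk6 values was not tested.

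**Figure D3:**
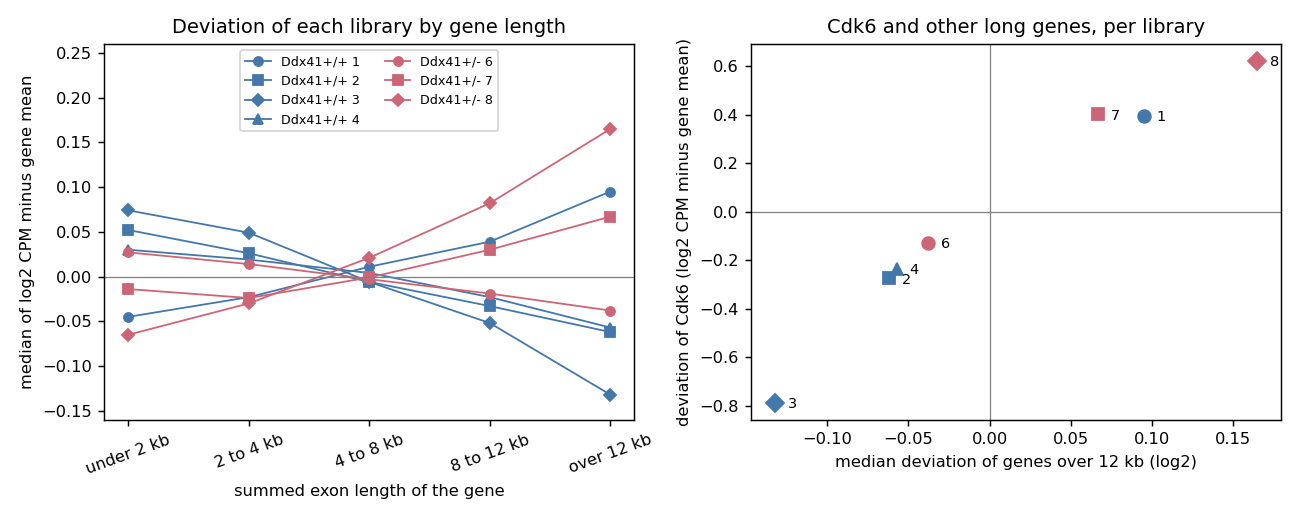
Left, median deviation of log2 CPM from the gene mean in 5 classes of exon length, one line per library. Right, the deviation of Cdk6 against that of genes over 12 kb, one point per library, numbered by replicate. Ddx41+/+ replicate 3 is lowest on both axes of the right panel and Ddx41+/- replicate 8 highest.

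Among 11249 genes with a mean of at least 1 CPM, those whose deviations over the 7 libraries were nearest to Cdk6 were Tmem245, Cbl and Hipk2, with a mean absolute difference of 0.051, 0.061 and 0.088 on the log2 scale. These were looked up after the values of Cdk6 were seen. Their exons span 17.09 kb, 12.3 kb and 8.84 kb, and the part of exon length in this likeness was not tested.

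Cdkn1b (chromosome 6, 134920401 to 134925513, plus strand) encodes the KIP inhibitor that holds cyclin E with Cdk2 inactive in resting cells. It had 33.7, 30.7, 33.7 and 29.0 CPM in Ddx41+/+ and 32.3, 31.9 and 31.0 CPM in Ddx41+/-. All Ddx41+/- libraries lay inside the Ddx41+/+ range. Its log2 fold change was -0.0031 ± 0.0894 (SE; edgeR BH-adjusted p = 0.993; fold 0.875 to 1.14).

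Cdkn2c (chromosome 4, 109660876 to 109667189, minus strand), an INK4 inhibitor known to limit stem cell renewal, had 37.3, 41.6, 39.96 and 44.4 CPM in Ddx41+/+. In Ddx41+/- it had 42.6, 36.2 and 48.2 CPM, so that the lowest and the highest of the 7 libraries were both Ddx41+/-. For Cdkn2c the log2 fold change was 0.054 ± 0.0995 (SE; edgeR BH-adjusted p = 0.893; fold 0.897 to 1.20). Cdkn2d (chromosome 9, 21288410 to 21291407, minus strand), the other abundant INK4 inhibitor, had 33.1, 28.5, 31.7 and 32.2 CPM in Ddx41+/+ and 32.5, 25.3 and 30.0 CPM in Ddx41+/-. Ddx41+/- replicate 7 was the lowest library for both inhibitors, and the genotypes overlapped for both. For Cdkn2d the log2 fold change was -0.10 ± 0.101 (SE; edgeR BH-adjusted p = 0.783; fold 0.804 to 1.08). Of the sum of Cdkn1b, Cdkn2c and Cdkn2d per kb of exon, Cdkn2d held 47.3% ± 1.96 for Ddx41+/+ (SD, n = 4) and 44.9% ± 2.09 for Ddx41+/- (SD, n = 3), and Cdkn1b held 16.6% ± 1.32 and 17.0% ± 1.91, respectively.

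Cdkn2a (chromosome 4, 89274471 to 89294653, minus strand) uses separate first exons to make the INK4a inhibitor of Cdk4 and Cdk6 and the unrelated protein ARF, which stabilises p53. Its single row pools both transcripts. The RefSeq promoters of the 2 starts (GRCm38.p6) are shown because the locus was nearly silent, with an E2F-type motif in capitals at -99 of the upstream start, which makes ARF, and at -244 of the downstream start, which makes INK4a.
Cdkn2a, upstream start, chr4:89294620-89294869, minus strand: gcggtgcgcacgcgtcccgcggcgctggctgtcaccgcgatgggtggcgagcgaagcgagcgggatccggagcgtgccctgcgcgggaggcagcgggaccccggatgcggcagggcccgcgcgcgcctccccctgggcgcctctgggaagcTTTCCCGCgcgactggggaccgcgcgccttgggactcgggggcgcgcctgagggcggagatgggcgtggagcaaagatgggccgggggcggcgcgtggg
Cdkn2a, downstream start, chr4:89282193-89282442, minus strand: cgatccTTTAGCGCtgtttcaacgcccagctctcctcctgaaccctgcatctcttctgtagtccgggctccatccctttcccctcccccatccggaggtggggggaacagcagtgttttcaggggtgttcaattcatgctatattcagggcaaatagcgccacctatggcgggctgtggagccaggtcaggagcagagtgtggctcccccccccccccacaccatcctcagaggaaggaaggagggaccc
Cdkn2a was listed at 0 counts in all 4 Ddx41+/+ libraries and in Ddx41+/- replicates 6 and 8. A count of 0 allows up to 3 counts, or 0.0676 to 0.0948 CPM in these libraries. Ddx41+/- replicate 7 held 15 counts, or 0.445 CPM (exact Poisson 95% interval 0.249 to 0.734 CPM, counting error only). The gene did not pass the filter on low counts. Without the filter its unadjusted p in edgeR was 0.0225 and its BH-adjusted p 0.405, which rests on that library alone. The neighbouring INK4 gene Cdkn2b had 0 counts in the Ddx41+/+ libraries and 0, 5 and 2 counts in Ddx41+/- replicates 6, 7 and 8 (edgeR without the filter, BH-adjusted p = 0.542).

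RefSeq promoters were at hand for 7 of the 10 members, with 10 starts in all. E-boxes were found in those of Cdk4 and Cdk6, and the E2F-type motif in those of Cdk6 and Cdkn2a. No match was found in the windows of Ccnd3, Cdkn1b, Cdkn2c and Cdkn2d. Ccnd1, Ccnd2 and Rb1 had no entry.

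Rb1 (chromosome 14, 73183673 to 73325822, minus strand) encodes the pocket protein that D cyclin kinases phosphorylate. It had the smallest unadjusted p of the members. Its levels were 31.8, 35.3, 36.6 and 36.8 CPM in Ddx41+/+ and 35.1, 44.2 and 40.7 CPM in Ddx41+/-. Ddx41+/- replicates 7 and 8 were above all Ddx41+/+ libraries, whereas replicate 6 was within their range. The log2 fold change was 0.19 ± 0.0953 (SE), at an unadjusted p of 0.0668 and a BH-adjusted p of 0.514 in edgeR, and the fold lay between 0.990 and 1.31. Without Ddx41+/- replicate 6 the unadjusted p was 0.0142 and the BH-adjusted p 0.253. After the length correction the fold change was 0.18 (edgeR unadjusted p = 0.0726). Exons of Rcbtb2 and Lpar6 on the opposite strand cover 8.11% and 6.78% of the Rb1 exons. The genes nearest to Rb1 in their deviations over the 7 libraries were Entpd7, Srsf10 and AU040320, with mean absolute differences of 0.027, 0.032 and 0.035 on the log2 scale.

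The other genes of the G1 pathway, from the E cyclins to E2F targets, were examined in 8 lists. Of their 62 genes, 60 were tested and 0 had a BH-adjusted p under 0.05 in edgeR. At an unadjusted p under 0.05, 3 had higher values in Ddx41+/- (Tfdp1, Mki67, Top2a) and 2 lower values (Cdk2, Fbxo4), against 5.7% and 4.93% of all genes. The smallest BH-adjusted p was 0.277. Their median log2 fold change was -0.012, with 23 positive and 37 negative. Ranges did not overlap for 2 genes that were higher (Tfdp1, Top2a) and 1 that was lower (Fbxo4), against 4.85% and 5.21% of all genes.

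**Figure D4:**
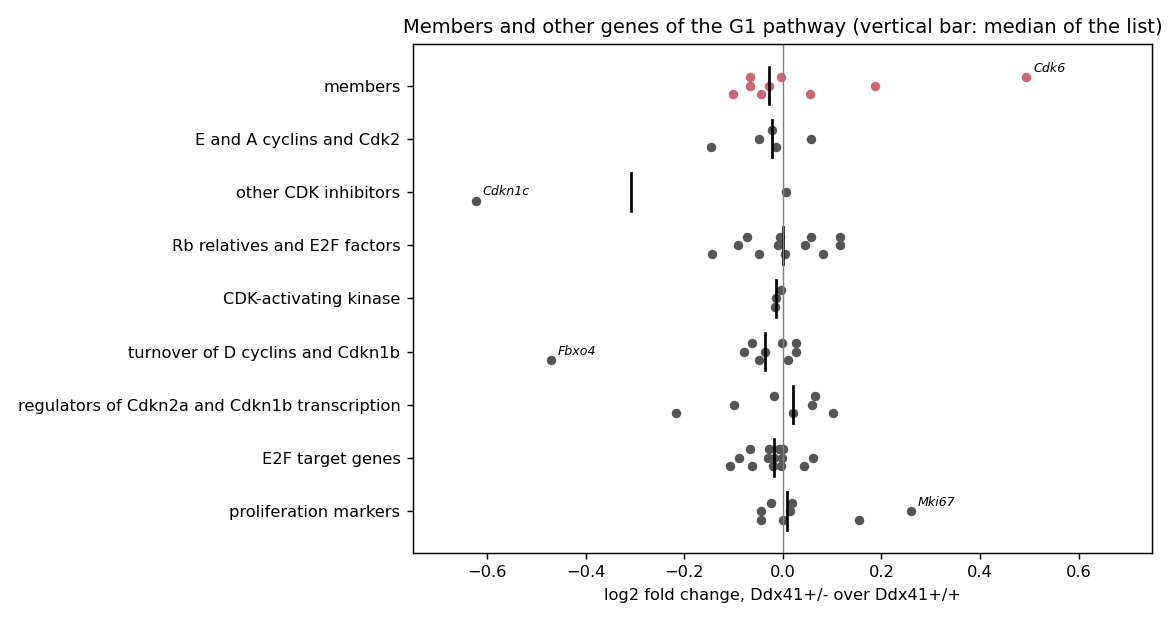
Log2 fold change (Ddx41+/- over Ddx41+/+) of the 9 members tested, in the top row, and of the 60 other genes of the G1 pathway tested, one row per list, with a point per gene and a vertical bar at the median of the list. Most points lie near 0, and Cdk6, Cdkn1c, Fbxo4 and Mki67 lie farthest out.

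Cyclin E with Cdk2 takes over from the D cyclin kinases late in G1. Ccne1 and Ccne2, which encode E cyclins, had log2 fold changes of -0.049 ± 0.102 (SE) and 0.057 ± 0.122 (SE). Cdk2 had 131, 138, 141 and 139.8 CPM in Ddx41+/+ and 133, 114 and 125 CPM in Ddx41+/-. Its genotypes overlapped through Ddx41+/- replicate 6, and its log2 fold change of -0.14 ± 0.0667 (SE) had a BH-adjusted p of 0.451 in edgeR. Of the KIP inhibitors that are not members, Cdkn1a, a p53 target, had a log2 fold change of 0.0059 ± 0.127 (SE; edgeR BH-adjusted p = 0.992). Cdkn1c, a marker of quiescent stem cells, was low and variable. It had 4.30, 2.61, 1.52 and 1.46 CPM in Ddx41+/+ and 2.36, 1.07 and 1.40 CPM in Ddx41+/-, which overlapped, with a log2 fold change of -0.62 ± 0.411 (SE; edgeR BH-adjusted p = 0.633).

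The Rb relatives Rbl1 and Rbl2 had log2 fold changes of -0.010 ± 0.0678 (SE) and 0.046 ± 0.0701 (SE). Tfdp1, a dimer partner of E2F factors, had 370.3, 382, 372 and 387 CPM in Ddx41+/+ and 397, 424 and 409 CPM in Ddx41+/-. All Ddx41+/- libraries were higher, at a log2 fold change of 0.12 ± 0.0552 (SE; edgeR unadjusted p = 0.0499, BH-adjusted p = 0.469). Tfdp2, another dimer partner, had a log2 fold change of -0.091 ± 0.0705 (SE; edgeR BH-adjusted p = 0.695). The 12 Rb relatives and E2F factors had 6 positive and 6 negative fold changes, with a median of 0.0002. The 14 E2F target genes of DNA replication, among them the Mcm helicase subunits, had 3 positive and 11 negative fold changes with a median of -0.019 and a range from -0.11 to 0.061. None passed an unadjusted p under 0.05 in edgeR, and the smallest BH-adjusted p was 0.580. The lowest p among them belonged to Cdt1, a replication licensing factor, with a log2 fold change of -0.11 ± 0.0632 (SE).

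Genes of D cyclin and Cdkn1b turnover numbered 9. Of these Fbxo4, an F-box protein described as a ligase subunit for D cyclins, had 9.62, 10.9, 9.79 and 8.95 CPM in Ddx41+/+ and 8.12, 4.83 and 8.23 CPM in Ddx41+/-. All Ddx41+/- libraries were lower, replicate 7 by the widest margin, and the log2 fold change was -0.47 ± 0.188 (SE; edgeR BH-adjusted p = 0.382). In the CDK-activating kinase (3 genes) all fold changes were between -0.016 and -0.0040, with Cdk7, its catalytic subunit, at -0.015. Among 7 regulators of Cdkn2a and Cdkn1b transcription, Ezh2, the methyltransferase of a Polycomb repressive complex, had the smallest p, with a log2 fold change of -0.10 ± 0.0626 (SE; edgeR BH-adjusted p = 0.607).

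Proliferation markers comprised 8 genes, 5 with positive and 3 with negative fold changes, and their median log2 fold change was 0.0078. Apart from Mki67 and Top2a, they lay between -0.044 and 0.019, with unadjusted p-values of 0.554 or more in edgeR. Mki67, which encodes the Ki-67 antigen of cycling cells, had 856, 726, 688 and 805 CPM in Ddx41+/+ and 828, 918 and 1014 CPM in Ddx41+/-. Ddx41+/- replicates 7 and 8 were the highest libraries and replicate 6 lay within the Ddx41+/+ range. The log2 fold change was 0.26 ± 0.0816 (SE; edgeR unadjusted p = 0.00623, BH-adjusted p = 0.277). Mki67 has 10.06 kb of exon, and after the length correction its log2 fold change was 0.20 (edgeR unadjusted p = 0.00415, BH-adjusted p = 0.217). Top2a, a topoisomerase of dividing cells, was higher in all Ddx41+/- libraries, at 884 ± 49.4 CPM (SD, n = 3) against 795 ± 21.3 CPM (SD, n = 4). Its log2 fold change was 0.15 ± 0.0584 (SE; edgeR unadjusted p = 0.0181, BH-adjusted p = 0.355). After the length correction it was 0.11 (edgeR unadjusted p = 0.0678, BH-adjusted p = 0.51).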

How the data were processed

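RNA-seq of LSK cells from 4 Ddx41+/+ and 3 Ddx41+/- samples, grouped by the labelled genotype, was analysed. The authors deposited whole-number counts for each gene symbol, without normalization. The submitters' processing notes name FastQC 0.11.7, HISAT2 2.0.5, featureCounts 1.5.2 and the build mm10. The labels and the methods of the study name different TruSeq kits, and the use of strand and of multi-mapped reads is not given in the sources used here.

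Members and lists were chosen with earlier results of these data known. Counts were tested with edgeR 4.0.16 in R 4.3.3 (TMM scaling, filterByExpr, robust quasi-likelihood fit), with BH adjustment over 13340 genes and a threshold of 0.05. CPM used TMM-scaled totals. The code was tested on simulated data. Alternatives were library totals, median-of-ratios and upper-quartile scaling, no filter, DESeq2 1.42.0, limma-voom (limma 3.58.1) with and without sample quality weights, a non-robust fit, leaving out each library and, chosen after seeing the data, a lowess correction for exon length (13219 genes with a length). If both reads of a pair were counted, counts are less precise than their size implies.

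Named genes were the members, Ddx41, in each pathway list the gene with the smallest p, any pathway gene past BH 0.05, close relatives (Cdkn1a, Cdkn1c, Cdkn2b, Ccne1, Ccne2, Cdk2, Rbl1, Rbl2, Mki67), and the 3 genes of the pattern nearest to the member with the smallest p (predicted genes left out). Top2a, Tfdp2, the markers past BH 0.05 (Mycn, Mmp9, Blnk) and the genes nearest to Cdk6 were named after their values were seen. The markers Kit and Ly6a were also named after their values were seen. Positions and lengths came from GENCODE M21 (GRCm38) and promoters from RefSeq (GRCm38.p6). Intervals and floors for single counts cover counting error only.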

Additional observations from a re-analysis of the deposited data

How the results depend on the processing

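Of the 144 fold changes of members under the 16 alternatives, 0 passed a BH-adjusted p of 0.05 (smallest 0.233, Ccnd1 without Ddx41+/- replicate 7), and the number of members and of pathway genes past that threshold was 0 throughout. The number of members at an unadjusted p under 0.05 was 0 in edgeR and 1 without the filter (Cdkn2a), with limma-voom, with its quality weights and with a non-robust fit (Cdk6 in these 3). It ranged from 0 to 1 when single libraries were left out. Directions turned in 13 cases. For Cdkn1b, with a log2 fold change of -0.0031, it was 0.0001 with median-of-ratios scaling and with DESeq2, 0.017 with quality weights and 0.0093 after the length correction. Leaving out single libraries gave -0.045 to 0.027 for Cdkn1b, -0.37 to 0.084 for Ccnd1, -0.14 to 0.032 for Ccnd2 and -0.050 to 0.15 for Cdkn2c. The range for Cdk6 was 0.32 to 0.74 and for Rb1 0.11 to 0.27. Genes past BH 0.05 over the whole table numbered 29, against 15 with library totals, 91 without the filter, 164 with DESeq2, 10 with limma-voom, 14 with a non-robust fit and 7 to 41 with single libraries left out. The cause was not tested. The Ddx41 fold change stayed between -0.56 and -0.50 when libraries were left out. No paired analysis was possible because the labels give the genotypes no replicate number in common. The length correction and the longest coding transcript as length were chosen after seeing the data. With 3 Ddx41+/- libraries, a fold for Cdk6 of up to 2.48 and for Ccnd1 down to 0.708 remained inside the 95% interval.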
